A study of Mus musculus with 6 samples.

Results

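The inflammatory genes described here are 30 of the 42396 genes in the count tables of cultured mouse ventral midbrain. They are 4 cytokines, 9 chemokines, the 5 subunits of the transcription factor NF-kB and 4 genes grouped here as inhibitors of inflammatory signalling. The others are 6 adhesion, enzyme and secreted protein genes, and 2 genes of survival signalling. The 30 genes were chosen by name for their function, with earlier results of these data known. All 30 names were found in each of the 6 tables. Dissociated ventral midbrain of wild-type mouse embryos at embryonic day 14 was plated at 150000 cells per well and infected on the same day with lentivirus at a multiplicity of 5. The control virus was pll3.7-Scr2, which carries a scramble hairpin, and the knockdown virus was pll3.7-shRmstI, which carries a hairpin against circRmst, a circular RNA of the gene Rmst. RNA was taken after 3 days in vitro from 3 control and 3 knockdown libraries. Per the labels these came from 3 independent cultures, with 2 or 3 wells harvested for each condition, and which libraries share a culture is not given. Every library came from infected cells, so the levels below are levels after infection, and a response to the virus that both groups share cannot be seen in the comparison between them.

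NF-kB is a family of dimeric transcription factors. In resting cells inhibitor proteins hold the dimers in the cytoplasm, and signals from receptors for tumour necrosis factor, interleukin-1 or microbial products release them to the nucleus. There they raise cytokines, chemokines and adhesion molecules, and also their own inhibitors, which close the loop. In brain, microglia are the main source of Tnf and Il1b, while astrocytes, endothelial cells and neurons carry parts of the pathway too.

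A sequence feature that many of these genes share is the kB motif, the 10-base consensus bound by NF-kB dimers. RefSeq promoter sequences (GRCm38.p6) were matched for 20 of the 30 genes, and the 250 bases before each transcription start were searched on both strands. The motif was found in 8 of the 20 genes (40.0%) and in 1204 of the 27025 genes of the whole promoter table (4.46%). Overlapping matches were counted as found, and a gene with several starts counted once if any start held the motif. The members include textbook targets of NF-kB, so this share describes the choice of genes. A match is a run of letters and not a measured binding site. The 8 promoters are shown since they fall into a well-read and a barely read set in these libraries. Each line holds the 130 bases before the start, 5′ to 3′ on the strand of the gene, with the bases of a kB match in capitals. Nfkbia (chr12:55492648-55492777, minus strand), Nfkb2 (chr19:46304607-46304736, plus strand, the one of its 3 listed starts with a match in this stretch), Tnfaip3 (chr10:19015411-19015540, minus strand, the listed start that holds a match) and Rel (chr11:23770970-23771099, minus strand) had 3918, 1376, 1318 and 805 counts over the 6 libraries. Cxcl1 (chr5:90891115-90891244, plus strand), Cxcl2 (chr5:90903769-90903898, plus strand), Cxcl10 (chr5:92348890-92349019, minus strand) and Il6 (chr5:30012984-30013113, plus strand) had 20, 19, 14 and 2.
Nfkbia: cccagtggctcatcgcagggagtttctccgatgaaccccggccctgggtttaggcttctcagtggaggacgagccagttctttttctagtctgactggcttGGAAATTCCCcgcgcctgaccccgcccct
Nfkb2: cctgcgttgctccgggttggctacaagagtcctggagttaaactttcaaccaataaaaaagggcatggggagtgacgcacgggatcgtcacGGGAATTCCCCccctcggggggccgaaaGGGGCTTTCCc
Tnfaip3: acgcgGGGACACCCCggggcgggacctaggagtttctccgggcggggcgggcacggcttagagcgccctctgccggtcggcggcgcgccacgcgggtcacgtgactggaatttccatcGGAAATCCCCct
Rel: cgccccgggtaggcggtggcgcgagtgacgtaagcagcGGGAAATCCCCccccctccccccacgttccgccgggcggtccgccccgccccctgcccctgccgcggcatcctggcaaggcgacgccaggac
Cxcl1: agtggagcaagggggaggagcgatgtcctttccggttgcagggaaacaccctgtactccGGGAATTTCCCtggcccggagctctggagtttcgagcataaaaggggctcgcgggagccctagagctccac
Cxcl2: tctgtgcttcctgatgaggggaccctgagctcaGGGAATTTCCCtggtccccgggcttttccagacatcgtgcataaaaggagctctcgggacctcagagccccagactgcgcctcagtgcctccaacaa
Cxcl10: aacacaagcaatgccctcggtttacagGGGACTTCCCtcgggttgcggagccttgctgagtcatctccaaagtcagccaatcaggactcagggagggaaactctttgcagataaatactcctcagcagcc
Il6: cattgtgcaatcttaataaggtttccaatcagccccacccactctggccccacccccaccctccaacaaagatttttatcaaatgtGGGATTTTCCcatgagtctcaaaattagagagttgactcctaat

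Cxcl1 and Cxcl2, which encode neutrophil-attracting chemokines, had the same 11 letters in capitals, beginning at position -71 from the start in Cxcl1 and at -97 in Cxcl2. Those 11 letters are a match on each strand, shifted by 1 base. Cxcl10 has another match farther upstream, at -159, and the other 2 starts of Nfkb2 have a match each outside the stretch shown. Of these 8 genes with a match, 4 had at least 805 counts and the other 4 had at most 20. The 12 searched genes without a match ran from 0 counts (Tnf) to 7502 (Rela), and whether level goes with the motif was not tested. No kB match was found in the searched windows of the other 12 genes, among them Tnf, Il1b, Icam1, Rela and Traf1, which says only that these letters are not in those windows.

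**Figure D1:**
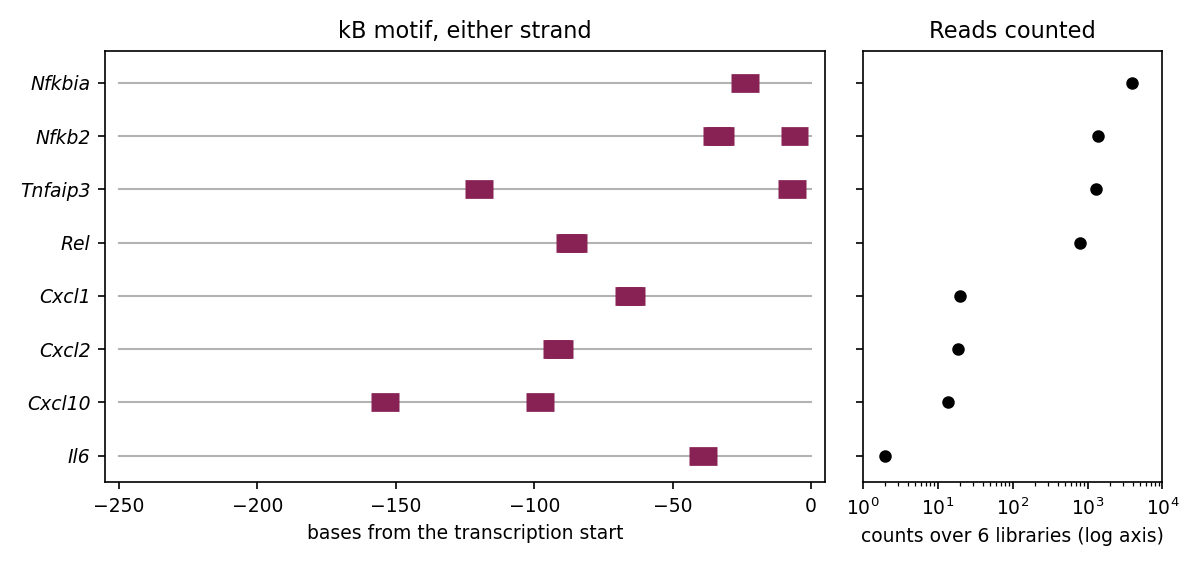
Left, position of kB motif matches on either strand (filled boxes) in the 250 bases before the transcription start of 8 genes, for Nfkb2 and Tnfaip3 at the start shown by sequence. Right, counts over all 6 libraries on a log axis. Nfkbia, Nfkb2, Tnfaip3 and Rel had between 805 and 3918 counts, and Cxcl1, Cxcl2, Cxcl10 and Il6 between 2 and 20.

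After infection the NF-kB subunits, the 4 genes grouped as inhibitors of inflammatory signalling, Vcam1 and Traf1 were read well. By count, the 4 cytokines and 9 chemokines were hardly read at all. Among them, the zeros listed for Tnf and Cxcl16 cannot be read as absence. Of 42330 counts over the 30 genes and 6 libraries, the 5 subunits held 42.7%, the 4 inhibitors 19.3% and the 6 adhesion, enzyme and secreted protein genes 26.6%. The 9 chemokines held 0.735% and the 4 cytokines 0.139%. Vcam1, Rela and Nfkb1 alone held 60.4%. In all, 20 of the 30 genes had a count in every library, 14 had at least 10 counts in every library, and 12 had a mean of at least 1 CPM (the count scaled to library size and composition). These are bulk libraries of mixed cells, so few cells with much of an RNA and many cells with little of it cannot be told apart. The plot of levels by library shows this order.

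**Figure D2:**
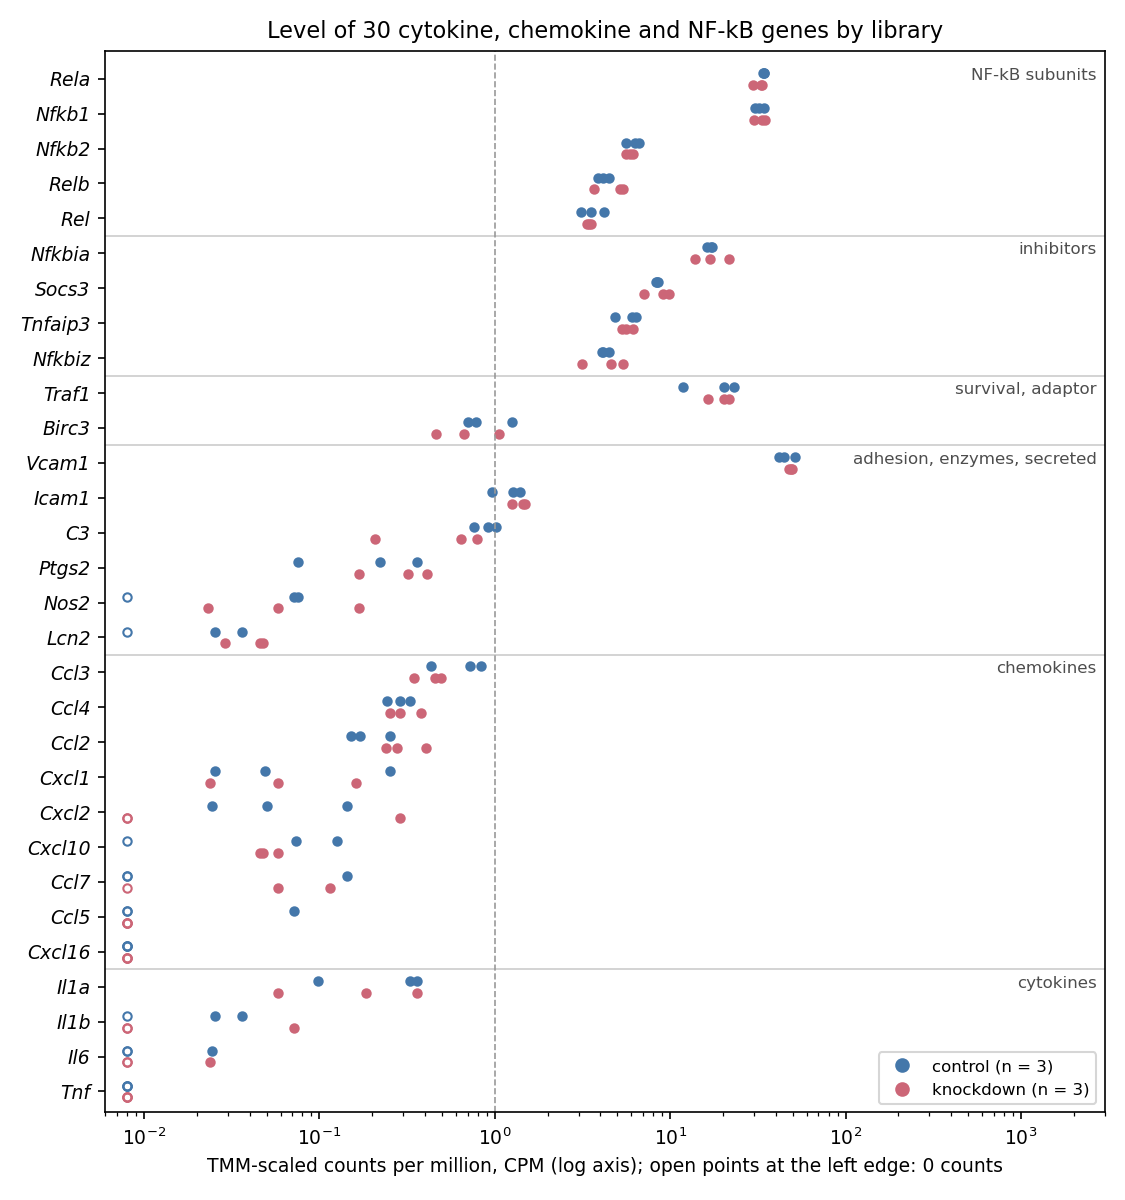
TMM-scaled CPM of the 30 genes in each library on a log axis, by role (blue, 3 control libraries; red, 3 knockdown libraries; open points at the left edge, 0 counts; dashed line, 1 CPM). All 5 subunits and all 4 genes grouped as inhibitors lie above 1 CPM in every library. All cytokines and chemokines lie below it in every library. The 0 counts of Tnf and Cxcl16 cannot be read as absence.

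The total counts assigned to genes ran from 27248934 to 43646521 per library. A gene with 0 counts could still hold up to 3 counts, which is 0.0687 CPM in the deepest library and 0.11 CPM in the shallowest, for counting error only. Rmst, the host gene of the target, was at 115, 117 and 124 CPM in the control libraries, against 105, 97.1 and 115 CPM under knockdown. Its gene-level reads mix the linear and the circular RNA and so do not check the hairpin. All 10 markers of dopamine neurons were measured above the filter on low counts, with Th, the enzyme that makes the dopamine precursor, at 36.9 to 60.9 CPM, and the labels call the cells dopamine neurons. Markers of glia were also read. The 12 markers of astrocytes and radial glia summed to between 1860 and 2260 CPM in the control libraries and between 2040 and 2250 CPM in the knockdown libraries. Markers of microglia were far lower, with sums between 67.6 and 78.7 CPM in the control libraries, against between 63.6 and 69.5 CPM under knockdown over 18 genes.

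By count, the 4 cytokines were at or near 0 in both groups, though for Tnf the zeros cannot be read as absence (below). Il6, the acute-phase interleukin, had 1, 0 and 0 counts in control replicates 1 to 3, and the knockdown replicates, in the same order, had 0, 0 and 1. For Il1b, the main secreted interleukin-1 of microglia, the counts were 0, 1 and 1 in the control libraries, against 0, 0 and 3 under knockdown. Its neighbour Il1a had more reads, with 4, 13 and 10 counts in the control libraries, against 8, 2 and 15 under knockdown. Il1a, which overlaps Gm14023, was high and low in libraries of both groups, and the groups overlapped. It was the only cytokine with enough counts to be tested, with a log2 fold change of -0.31 (knockdown against control, 95% interval from -1.81 to 1.19, unadjusted p = 0.655 in edgeR's quasi-likelihood test). That interval spans from 0.284-fold to 2.28-fold.

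Tnf and the chemokine gene Cxcl16 were listed at 0 counts in all 6 libraries, but these zeros cannot be read as absence. The tables list Tnf with 3 further copies and Cxcl16 with 1 further copy on alternate sequences of the genome, and all of these copies were at 0 counts as well. In the authors' FPKM values (fragments scaled to transcript length and library size), which were made separately, Tnf was above 0 in every library. It was at 0.015, 0.0639 and 0.219 FPKM in the control libraries, against 0.0289, 0.0748 and 0.0761 FPKM under knockdown. Cxcl16, a membrane-bound chemokine, was at 0.153, 0.2 and 0.268 FPKM in the control libraries, against 0.147, 0.32 and 0.0311 FPKM under knockdown. The groups overlapped in both. Of 840 genes with such a copy and an FPKM above 0 in every library, 343 (40.8%) were listed at 0 counts throughout, against 194 of 17697 genes listed once (1.10%). By the FPKM of its own entry Tnf stood at percentile 6.6 of the genes tested by count. The FPKM values above are for the gene's own entry and leave out the copies. Summed with the copies, Tnf ran from 0.0601 to 0.725 FPKM over the libraries and Cxcl16 from 0.0622 to 0.427 FPKM.

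Among the other chemokines, the neighbours Ccl3 and Ccl4 were the most read. Ccl3, a chemokine of microglia and macrophages, had 34, 17 and 20 counts in the control libraries, against 15, 17 and 19 under knockdown. Control replicate 1 stood highest at 0.829 CPM, and the groups overlapped. The log2 fold change of Ccl3 was -0.61 (standard error 0.40) with a 95% interval from -1.50 to 0.27 (unadjusted p = 0.156, edgeR). Without control replicate 1 it was -0.39. Ccl4, which acts through the same receptor, had 10, 13 and 8 counts in the control libraries, against 11, 13 and 12 under knockdown, with a log2 fold change of 0.08 (95% interval from -0.90 to 1.06). Ccl3 and Ccl4 overlap by 755 bases on chromosome 11 in the RefSeq table, and reads in that stretch cannot be assigned with certainty, as it is not known here whether strand was used in counting.

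Ccl2, the monocyte-attracting chemokine, had 7, 6 and 7 counts in the control libraries, against 12, 14 and 10 under knockdown. Scaled for depth, control replicate 3 was at 0.252 CPM and knockdown replicate 3 at 0.239 CPM, so the groups overlapped. Its log2 fold change was 0.69 (standard error 0.50), the largest upward value among the 19 genes tested, with a 95% interval from -0.41 to 1.79 (unadjusted p = 0.194, edgeR). Without knockdown replicate 2 it was 0.452, and without control replicate 3 it was 0.912. At least 10 counts were reached in 3 of 3 knockdown libraries and 0 of 3 control libraries. The filter on low counts scales for depth, however. On that scale Ccl2 was highest in knockdown replicates 1 and 2 and control replicate 3. Libraries of both groups thus carried it into the test, most of them from the group in which it was higher. The same libraries were highest in Ptgs2. Ccl7, which lies 8.26 kb from Ccl2 on chromosome 11, had 0, 0 and 4 counts in the control libraries, against 5, 2 and 0 under knockdown.

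The remaining chemokines were too low to be tested. Cxcl1 had between 1 and 7 counts per library. Cxcl2 had 1, 2 and 4 counts in the control libraries, against 0, 0 and 12 under knockdown, so that knockdown replicate 3 held 12 of its 19 reads. Cxcl10, which is also raised by interferon, had between 0 and 5 counts, and Ccl5, an attractant of T cells, had 2 counts in control replicate 3 and 0 elsewhere. Single libraries thus carried most of the few reads of Cxcl2 and Ccl5, and no library was high in all of these genes. Cxcl10 overlaps the gene Art3 and Ccl5 overlaps Gm32650, so their reads share the uncertainty of Ccl3 and Ccl4.

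The 5 NF-kB subunits formed a clear order when compared per length. Rela, the transactivating subunit p65 of the classical dimer, was the most abundant at 6.94 ± 0.4 FPKM over the 6 libraries (SD, n = 6). Its partner Nfkb1, which encodes p105 and p50, was at 3.42 ± 0.255 FPKM, and the ratio of Rela to Nfkb1 was 2.04 ± 0.188. The genes of the alternative pathway followed, Relb at 0.922 ± 0.177 FPKM and Nfkb2, which encodes p100 and p52, at 0.918 ± 0.0641 FPKM. Relb and Nfkb2 did not differ beyond their spread. Rel, the subunit known best from lymphocytes, was lowest at 0.265 ± 0.0335 FPKM, and Rela was 26.6 ± 3.81 times its level. Among the genes tested by count, whose median was 3.67 FPKM, Rela stood at percentile 64.7, Nfkb1 at 48.6 and Rel at 18.4.

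None of the 5 subunits passed the test between the groups. Rela was at 33.6, 34.1 and 34.1 CPM in control replicates 1 to 3, and the knockdown replicates, in the same order, were at 33.4, 32.7 and 29.7 CPM. Every knockdown library lay below every control library, by as little as 33.4 against 33.6 CPM. The log2 fold change of Rela was -0.09 with a 95% interval from -0.31 to 0.14, and edgeR gave an unadjusted p of 0.419. Without knockdown replicate 3 it was -0.027, and over all single libraries left out it ran from -0.121 to -0.027. Rela was the only one of the 19 tested members whose groups did not overlap (5.26%), and among all 17439 genes tested 5.20% had groups that did not overlap, 2.92% with the knockdown lower. Nfkb1 was at 32.1, 30.4 and 34.3 CPM in the control libraries, against 29.9, 33.5 and 34.5 CPM under knockdown, with a log2 fold change of 0.02 and an interval from -0.22 to 0.26. For Nfkb2 the levels were 5.56, 6.67 and 6.33 CPM against 6.13, 5.6 and 5.93 CPM, and the log2 fold change was -0.07 with an interval from -0.43 to 0.28. The groups overlapped in Nfkb1 and Nfkb2. Nfkb2 overlaps Psd and 4833438C02Rik, and Nfkb1 overlaps Gm46827.

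Relb was higher in 2 of the 3 knockdown libraries and lowest in the third. It was at 4.12, 4.5 and 3.88 CPM in the control libraries, against 5.38, 5.19 and 3.66 CPM under knockdown, with a log2 fold change of 0.18 and a 95% interval from -0.27 to 0.63. Without knockdown replicate 3 this was 0.35, with an unadjusted p of 0.0985. Rel was at 4.20, 3.08 and 3.52 CPM in the control libraries, against 3.54, 3.37 and 3.42 CPM under knockdown (log2 fold change -0.07, interval from -0.51 to 0.38). The control libraries of Rel spanned the knockdown libraries.

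The genes grouped as inhibitors were all expressed. Knockdown libraries spread more widely in CPM than control libraries for Nfkbia, Socs3 and Nfkbiz, and less widely for Tnfaip3. The subunits were mixed as well, with a wider spread for Rela, Nfkb1 and Relb and a narrower one for Nfkb2 and Rel. The share of all genes with a wider spread under knockdown was not counted. Nfkbia encodes IkB-alpha, the inhibitor that NF-kB itself induces. It was at 16.1, 17.2 and 17.1 CPM in the control libraries, against 21.6, 16.9 and 13.9 CPM under knockdown. Knockdown replicates 1 and 3 were thus the highest and the lowest of the 6. The log2 fold change was 0.06 with a 95% interval from -0.29 to 0.40 (unadjusted p = 0.718, edgeR), and without knockdown replicate 1 it was -0.125. Per length Nfkbia was at 6.05 ± 0.859 FPKM (SD, n = 6), or 0.87 ± 0.103 of Rela.

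Socs3, the feedback inhibitor of signalling by interleukin-6 family receptors, followed at 1.84 ± 0.249 FPKM. It was at 8.39, 8.49 and 8.24 CPM in the control libraries, against 9.14, 9.86 and 7.10 CPM under knockdown, with a log2 fold change of 0.05 and a 95% interval from -0.30 to 0.41. Its knockdown libraries lay on both sides of the control libraries. Nfkbiz, which encodes a nuclear IkB protein, was at 4.49, 4.07 and 4.14 CPM in the control libraries, against 4.62, 3.13 and 5.38 CPM under knockdown (log2 fold change 0.05, interval from -0.44 to 0.54). Nfkbiz was placed in this group by its protein family, and whether it inhibits the pathway here was not tested. Tnfaip3 encodes A20, an enzyme that edits ubiquitin chains and shuts off the pathway. It was at 6.07, 6.34 and 4.86 CPM in the control libraries, against 6.11, 5.31 and 5.59 CPM under knockdown, with a log2 fold change of -0.02 and an interval from -0.41 to 0.36. Control and knockdown overlapped in all 4 genes grouped as inhibitors.

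Of the adhesion genes, Vcam1 was abundant and Icam1 was not. Vcam1 encodes an adhesion molecule of the immunoglobulin family that is found on endothelium and also on glial progenitors. It had the highest level per length of the 30 genes, at 7.93 ± 0.615 FPKM (SD, n = 6), although its range over libraries overlapped that of Rela, the next in order. It was at 41.7, 44.3 and 51.4 CPM in the control libraries, against 47.8, 48.5 and 49.3 CPM under knockdown. The knockdown libraries fell inside the range of the control libraries, and the log2 fold change was 0.08 with a 95% interval from -0.15 to 0.32. Icam1, another ligand of leukocyte integrins, was at 1.27, 0.96 and 1.40 CPM in the control libraries, against 1.45, 1.25 and 1.48 CPM under knockdown (log2 fold change 0.21, interval from -0.41 to 0.83). The groups overlapped in both genes. Leaving out control replicate 1 gave 0.025 for Vcam1, and leaving out control replicate 3 gave 0.182. For Icam1 the value was 0.077 without control replicate 2 and 0.332 without control replicate 3. Vcam1 was 26.4 ± 4.54 times Icam1 in FPKM. Markers of endothelium summed to between 21.3 and 25.7 CPM in the control libraries, against between 21.2 and 25.6 CPM under knockdown over 10 genes, with Cldn5 at 0 counts, and whether they go with either gene was not tested.

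The enzymes and secreted proteins of inflammation were near the limit of detection. Nos2, the inducible nitric oxide synthase, had 0, 3 and 2 counts in the control libraries, against 1, 2 and 7 under knockdown. Lcn2, a secreted iron-carrier protein of reactive astrocytes, had at most 2 counts in any library. Ptgs2, which encodes cyclooxygenase-2, had 9, 3 and 10 counts in the control libraries, against 18, 11 and 7 under knockdown. Its log2 fold change was 0.51 with a 95% interval from -0.83 to 1.85, with 18 counts in knockdown replicate 1 and 3 in control replicate 2 at the extremes. Without control replicate 2 it was 0.093, without knockdown replicate 1 it was 0.189, and without control replicate 3 it was 1.012. The groups overlapped in each of these genes.

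C3, the central complement component, had the smallest unadjusted p of the 19 genes. It was at 0.756, 0.910 and 1.01 CPM in the control libraries, against 0.207, 0.638 and 0.788 CPM under knockdown. Knockdown replicate 1, with 9 counts, stood far below the others, and knockdown replicate 3 lay within the range of the control. The log2 fold change was -0.71 (standard error 0.46) with a 95% interval from -1.72 to 0.30 (unadjusted p = 0.149, edgeR). Without knockdown replicate 1 it was -0.31, and without knockdown replicate 3 it was -1.09. Of the tested members known from microglia or macrophages, C3, Ccl3 and Il1a had estimates below 0, and Ccl4, Ccl2 and Ptgs2 had estimates above 0. Of 13 microglia markers tested, 11 had estimates below 0, and their median log2 fold change was -0.27. Tmem119 and Cd68 were the 2 of these 13 with an unadjusted p under 0.05 in edgeR (adjusted p = 1.00 for both), beside 1.10% of all genes tested. Both were lower in each knockdown library, as were 2.92% of all genes tested. The defining markers were low in both groups, with Cx3cr1 at 0.324 to 1.32 CPM and Tmem119 at 0.319 to 0.755 CPM, and Aif1, Trem2 and Pf4 were listed at 0 counts, all 3 of them genes with copies on alternate sequences. Whether the microglia markers go with any of these 6 members was not tested.

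The 2 genes of survival signalling differed in level. Traf1, an adaptor of tumour necrosis factor receptors that is itself a target of NF-kB, was at 3.72 ± 0.819 FPKM (SD, n = 6), while Birc3, which encodes the ubiquitin ligase cIAP2, was at 0.157 ± 0.0486 FPKM. Traf1 was at 11.8, 23.1 and 20.2 CPM in the control libraries, against 16.4, 20.3 and 21.7 CPM under knockdown. Control replicate 1 was the lowest and control replicate 2 the highest library, a 1.95-fold range that was the widest among the 12 genes of at least 1 CPM. The log2 fold change of Traf1 was 0.09 with a 95% interval from -0.39 to 0.56, and without control replicate 1 it was -0.15. Birc3 had 32, 28 and 35 counts in the control libraries, against 20, 23 and 44 under knockdown (log2 fold change -0.32, interval from -1.21 to 0.58). The groups overlapped in Traf1 and Birc3. Without knockdown replicate 3 it was -0.68, and without control replicate 3 it was -0.026. Traf1 overlaps the gene Gm52552.

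**Figure D3:**
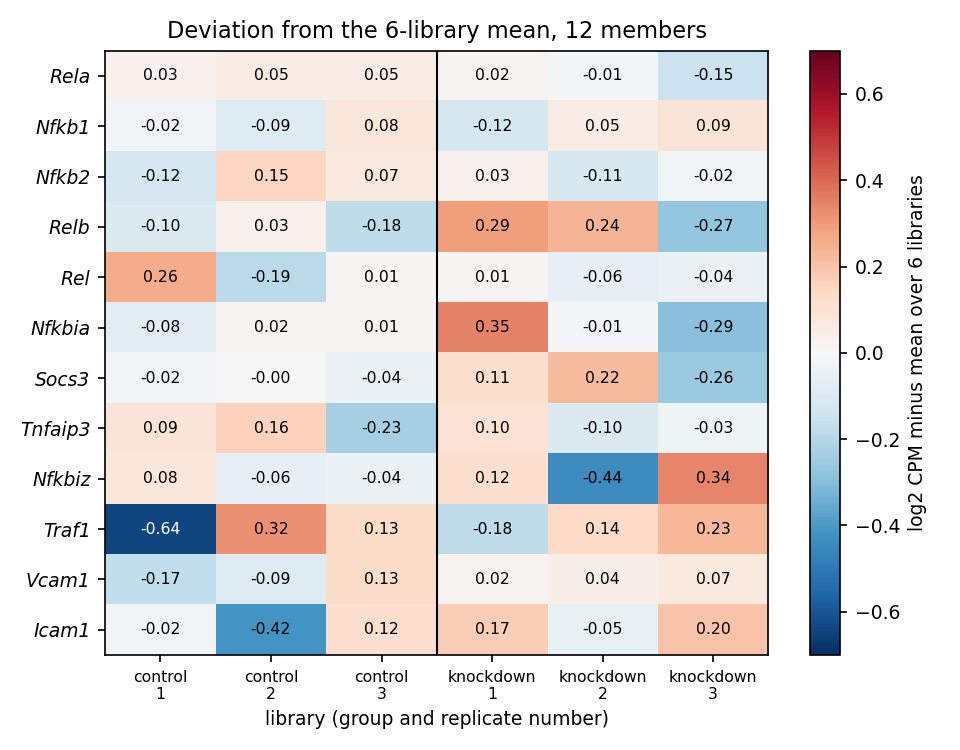
Deviation of log2 CPM from the mean over 6 libraries for the 12 genes whose mean reached 1 CPM, by library, with the vertical line between control and knockdown. No library is high or low across all genes; Traf1 in control replicate 1 deviates most, at -0.64, and Nfkbia in knockdown replicate 1 is at 0.35.

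No library was the highest or the lowest in all 12 well-read genes. Their median deviation from the 6-library mean lay between -0.02 and 0.06 log2 units in each of the 6 libraries. Control replicate 2 held the highest value of 4 genes, namely Nfkb2, Rela, Tnfaip3 and Traf1. Knockdown replicate 3 held the lowest value of 4 genes, namely Nfkbia, Rela, Relb and Socs3, and the highest value of Nfkbiz, Nfkb1 and Icam1.

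In the comparison of the knockdown with the control, 0 of the 19 members tested passed an adjusted p under 0.05 in edgeR's quasi-likelihood test (adjusted p = 1.00 for each). Over all 17439 genes tested 0% passed. At an unadjusted p under 0.05 there were 0 of 19 members, where 1.10% of all genes tested lay under it. DESeq2 and limma voom also called 0 members, with 0 under an unadjusted p of 0.05. The estimate was above 0 for 11 and below 0 for 8, and above 0 for 48.1% of all genes tested. The median log2 fold change of the members tested was 0.05, beside -0.006 over all genes tested. Precision differed by level. Among the 12 genes of at least 1 CPM, the 95% interval stayed inside 1.5-fold for 10 and inside 2-fold for all 12. None of the 7 tested genes below 1 CPM (0 of 7) had an interval within a 2-fold change, so a true difference of 2-fold in 1 direction or the other lay inside the interval of Il1a, Ccl2, Ccl3, Ccl4, Ptgs2, C3 and Birc3. The other 11 members did not pass the filter on low counts.

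**Figure D4:**
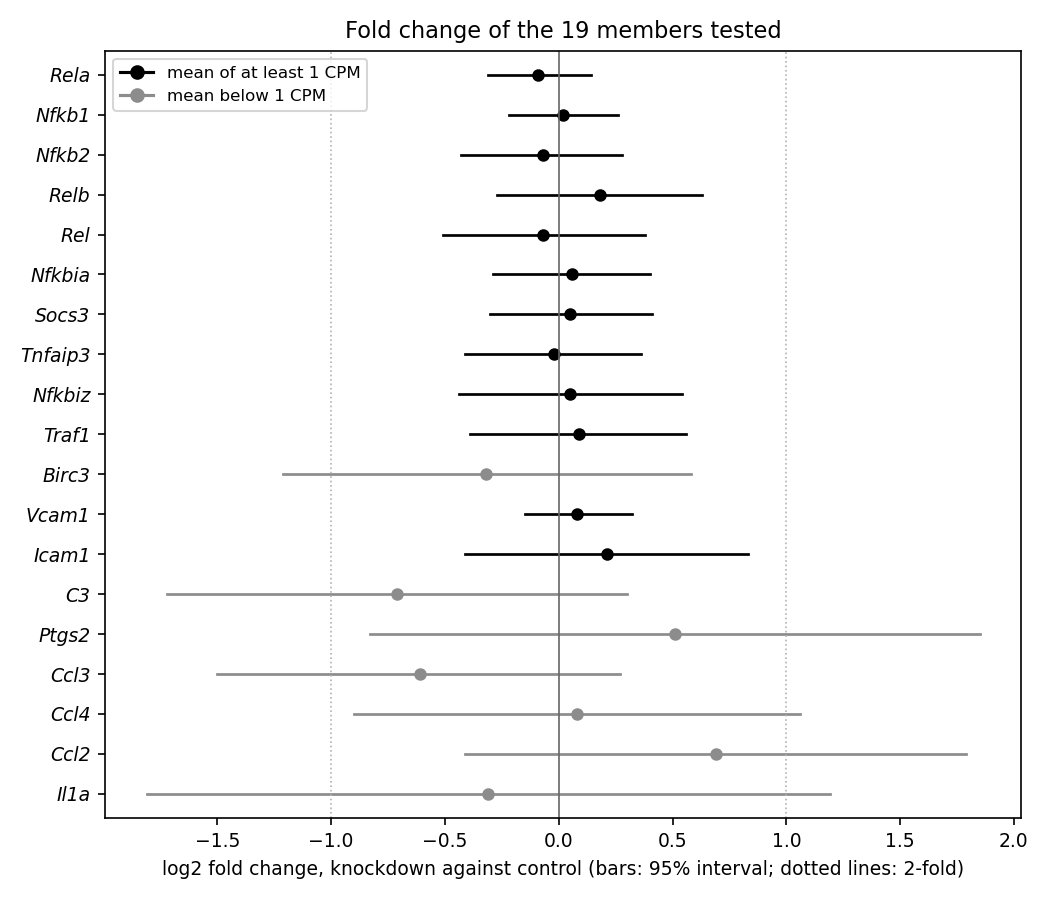
Log2 fold change of the 19 members tested, knockdown against control, with the 95% interval from edgeR (black, mean of at least 1 CPM; grey, mean below 1 CPM; dotted lines, 2-fold). All intervals include 0, and only the grey ones reach beyond 2-fold.

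The rest of the pathway was read from 4 further lists, of receptors, signalling proteins, inhibitors and other targets. Of their 90 genes, 64 were tested, 28 with an estimate above and 36 below the control, and the median log2 fold change was -0.012. In edgeR's test 0 passed the threshold in either direction, and 0 had an unadjusted p under 0.05. Groups did not overlap in 7 of the 64 (10.9%), beside 5.20% over all genes tested, and whether the 2 shares differ was not tested. These were Tlr2, Tlr4, Irak1, Ikbkb, Tnip1 and Irf1, lower in each knockdown library, and Gbp2, higher in each. Ikbkb, a catalytic subunit of the kinase that frees NF-kB, was named after its values were seen.

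Among the receptors, 11 of 18 were tested, 3 above and 8 below. The cytokine co-receptor Il6st, shared by the interleukin-6 family, was the most abundant per length at 15.1 ± 1.14 FPKM (SD, n = 6), with a log2 fold change of -0.00 ± 0.10 (SE). Cxcr4, the receptor for Cxcl12 in neuronal migration, was at 11.6 ± 0.913 FPKM with -0.08 ± 0.11. Tlr2, a receptor for bacterial lipoproteins, had the smallest p of this list, 0.096, with a log2 fold change of -0.66 ± 0.36 at 0.748 ± 0.172 CPM in the control libraries, against 0.469 ± 0.0213 CPM under knockdown (SD, n = 3 each, edgeR). Ccr2, the receptor for Ccl2, had 0 counts in every library.

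Of the 21 signalling genes 20 were tested, 11 above and 9 below. Rbck1, a subunit of the complex that builds linear ubiquitin chains, was at 15.2 ± 1.72 FPKM with a log2 fold change of 0.05 ± 0.11 (SE). Tab2, an adaptor of the kinase Tak1, was at 11.9 ± 0.887 FPKM with -0.00 ± 0.11. Irak1, a kinase downstream of interleukin-1 and Toll-like receptors, had the smallest p, 0.267, with -0.12 ± 0.10 (edgeR). Signalling proteins were thus read at levels above those of any of the 30 genes for Rbck1 and Tab2.

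The inhibitor list held 13 genes, of which 11 were tested, 6 above and 5 below. Nfkbib, which encodes IkB-beta, was at 9.05 ± 0.878 FPKM with a log2 fold change of -0.11 ± 0.11 (SE). Tnip1, a partner of A20, had the smallest p, 0.0928, at 14.3 ± 1.24 CPM in the control libraries, against 12 ± 1.23 CPM under knockdown (SD, n = 3 each, edgeR), a log2 fold change of -0.25 with a 95% interval from -0.55 to 0.05. Of 38 other targets 22 were tested, 8 above and 14 below. Bcl2l1, which encodes the anti-apoptotic protein Bcl-xL, was the most abundant at 25.6 ± 2.5 FPKM with 0.04 ± 0.11, and Sod2, the mitochondrial superoxide dismutase, was at 18.7 ± 1.23 FPKM with -0.06 ± 0.10. Lif, a cytokine of the interleukin-6 family, had the smallest p, 0.0825, with 0.95 ± 0.50 at 0.289 ± 0.0538 CPM in the control libraries, against 0.553 ± 0.279 CPM under knockdown (SD, n = 3 each, edgeR). Csf2, Cxcl9, Ccl8, Ccl20, Mmp3 and Cfb had 0 counts in every library.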

How the data were processed

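Libraries were made with a directional kit after removal of ribosomal RNA, per the labels' protocols. The deposited counts are whole-number counts per gene, 1 table per library. The deposited FPKM values are in the Cufflinks layout, per the file headers, and Cufflinks 2.2.1 and GRCm38 (mm10) are named in the submitters' processing notes. For alignment and counting, tool and strand use are not stated here. Positions of the 30 genes were the same in the FPKM tables and in RefSeq GRCm38.p6.

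The members, lists and tests were chosen with earlier results of these data known. Counts were tested with edgeR 4.0.16 (R 4.3.3), filterByExpr, TMM scaling, the quasi-likelihood test on group alone and Benjamini-Hochberg adjustment over 17439 genes. Intervals are at 95%. Alternatives used DESeq2 1.42.0, limma 3.58.1, other scalings and filters, FPKM, the replicate number as a block and leaving out each library. The fit was also run on simulated counts, with 2-fold and 4-fold changes set only in genes of at least 1 CPM. That run does not cover changes in genes below 1 CPM or changes under 2-fold. All 30 members are accounted for, those of at least 1 CPM by library and the others by counts. From each further list, up to 3 genes with the smallest p and the 3 with the highest FPKM could be named.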

Additional observations from a re-analysis of the deposited data

How the results depend on the processing

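No member passed the threshold under any of the 16 alternatives, and the smallest adjusted p was 1.00. Of 279 member estimates under these alternatives, 260 kept their sign and 19, in 10 members, did not. Over all genes edgeR called 11 without the filter on low counts (5 higher, 6 lower) and DESeq2 called 1, none of them a member. The median of 0.051 over 19 members became 0.011 over 10 members with FPKM and a pseudocount of 1. It was 0.011 over 29 members with FPKM, a pseudocount of 0.1 and no filter. These medians are over different sets of members, so the shift is not from the processing of the same genes alone. Leaving out 1 library gave medians from -0.004 to 0.064, the lowest without knockdown replicate 3 and 0.011 without knockdown replicate 1, and left 0 genes called in each case. A filter of 1 CPM in 3 libraries kept 12 members in place of 19. With FPKM, Tnfaip3 was at 0.018 (pseudocount 0.1, with or without the filter) and 0.006 (pseudocount 1), and Ccl4 at -0.006 (no filter). With 1 library left out, the range was -0.087 to 0.213 for Ccl4, -0.996 to 0.081 for Il1a, -0.015 to 0.077 for Nfkb1, -0.140 to 0.001 for Nfkb2, -0.125 to 0.210 for Nfkbia, -0.112 to 0.238 for Nfkbiz, -0.155 to 0.065 for Rel, -0.045 to 0.192 for Socs3, -0.121 to 0.064 for Tnfaip3 and -0.150 to 0.301 for Traf1. The cause of these shifts was not tested.

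With the replicate number as a block, 0 genes and 0 members were called and the members' median was 0.018. Same-numbered libraries correlated in their deviations from the group means by 0.318, 0.35 and 0.05 for numbers 1, 2 and 3 over 14501 genes. The libraries numbered 1 correlated best with each other, as did those numbered 2, and those numbered 3 did not. The labels do not say that a number marks a shared culture, so the main fit had no block. Intervals were widest in the members below 1 CPM. How much of that width is counting error and how much is spread between cultures was not tested.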

Other observations

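Zero counts alongside FPKM values above 0 touched other immune and vascular genes with copies on alternate sequences. Of 9 such genes in the lists used here, 6 were listed at 0 counts in every library. At its own entry Trem2, a receptor of microglia, was at 1.07 to 2.29 FPKM, and summed with its copy at 3.67 to 8.94 FPKM. Aif1, which encodes the microglial protein Iba1, was at 0.0286 to 0.129 FPKM, and with its copies at 0.229 to 0.628 FPKM. The endothelial gene Cldn5 was at 0.0104 to 0.0828 FPKM, and with its copy at 0.0208 to 0.118 FPKM. Traf5, an adaptor of tumour necrosis factor receptors, had 0 counts at its own entry and 40 at its copy. Pf4 and Cfb were at 0 FPKM in some libraries. Map2, a neuronal gene with a copy too, had 294037 counts, so a copy alone does not mark a gene as unread.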
